A study of Mus musculus with 6 samples.

Results

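The Schlafen genes of the mouse, Slfn1, Slfn2, Slfn3, Slfn4, Slfn5, Slfn8 and Slfn9, were followed in luminal progenitors of the mammary gland. The members were chosen by symbol from the cluster of Schlafen genes on chromosome 11, with the comparison of Robo1 genotypes already known, so the genotype differences of the members are given as descriptions. Of the 7 genes, 6 had a row among the 18537 gene clusters of the expression table. No row carried the symbol Slfn1, and its expression was not analysed here. Slfn10-ps, a gene of the same cluster whose symbol marks a pseudogene although the annotation used gives it a coding transcript, was followed beside them because it shares sequence with Slfn8 and Slfn9.

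Luminal progenitors were sorted as Lin-CD24loCD29+CD61+ cells from adult nulliparous females. The mice were Robo1+/+ or Robo1-/-, and the paper states that its females of these genotypes were either littermates or matched by age. The Robo1 deletion was germline, so that the rest of the gland lacked the gene too. There were 3 libraries of each genotype, and each pooled cells of 2 animals. The Robo1+/+ libraries are gh03, gh09 and gh15, the Robo1-/- libraries gh06, gh12 and gh18, and values of single libraries are given in this order.

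The libraries held between 9727191 and 17433868 reads assigned to gene clusters. Robo1 itself, the check of the labels, had normalized read counts of 289, 574 and 541 in the Robo1+/+ libraries and 130, 214 and 177 in the Robo1-/- libraries, so reads remained but the groups did not overlap. The luminal progenitor markers Kit, Elf5, Cd14, Itgb3, Aldh1a3, Krt8, Krt18 and Csn3 had reads in all 6 libraries, and none lay past the limits used below, with a median log2 fold change of -0.03. Csn3, a casein, had 7755, 8119 and 9771 in the Robo1+/+ libraries and 11376, 19143 and 16670 in the Robo1-/- libraries, which did not overlap. Its log2 fold change was 0.85, and 0.46 after a correction for GC content. Groups that did not overlap, with the Robo1-/- libraries above, made up 4.83% of all genes tested. The 5 markers of mature luminal cells, Esr1, Pgr, Prlr, Foxa1 and Cited1, were read as well, with a median log2 fold change of 0.40 and of 0.19 after the correction for GC content. Their summed value was 29543 to 41398 in Robo1+/+ and 40265 to 49605 in Robo1-/-, most of it from Prlr, with means of 24096 and 33574. Cited1 had a log2 fold change of -1.01, and of 0.03 after the correction. Of the 5 markers, Pgr, the progesterone receptor, did not overlap between genotypes, at 1721, 3003 and 3394 against 5481, 4124 and 3752. Its log2 fold change was 0.76, and 1.23 after the correction, where it lay past the limits, as 0.279% of all genes tested did and were higher. The part of mature luminal cells in the values of the Schlafen genes was not tested. Of the 6 basal markers, Krt5, Krt14, Acta2, Trp63, Oxtr and Myh11, none lay past the limits, with a median log2 fold change of 0.08. Their log2 fold changes ran from -1.12 for Krt5 to 0.45 for Oxtr. Their summed value was 549 to 1754 in Robo1+/+ and 713 to 1241 in Robo1-/-. The Robo1+/+ library gh03 differed in some markers. Its Aldh1a3 was 1972, against 5150 to 6865 in the other libraries, and its Krt14 of 407 and Acta2 of 508 were the highest. The Robo1-/- library gh18 stood apart by GC content. Its deviation from the other libraries fell with the GC content of the transcripts, with Spearman's rho of -0.81 across 12531 genes, against 0.17 to 0.61 in the other 5 libraries. At the GC content of Slfn2, Slfn5, Slfn8 and Slfn9, the curve of this library on GC content stood at 0.09, 0.42, 0.54 and 0.61 above the mean on the log2 scale, so each fold change of a Schlafen gene is also given without it.

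Schlafen proteins are a family first described for their regulation during thymocyte development. They share a core domain that, in the members best studied, binds or cleaves transfer RNA. The longer members add a region that resembles helicases, whereas the short members consist of little more than the core. Many Schlafen genes are induced by type I interferon, which signals through its receptor and JAK kinases to interferon-stimulated response elements in promoters. The coding length separated the family in the annotation. Slfn1 and Slfn2, the short members, had coding regions of 1014 and 1137 bases, Slfn3 and Slfn4, the intermediate members, 1554 and 1809 bases, and Slfn5, Slfn8 and Slfn9, the long members, 2655, 2733 and 2733 bases.

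Reads were sequenced in pairs and trimmed to 75 bases at each end. Where the 75 bases of a read are shared by related genes, only its mate can tell the genes apart, so the sequences that members share come before their values. In coding sequence, Slfn8 was 92.7% identical to Slfn9 and 92.8% identical to Slfn10-ps over the aligned bases, and Slfn9 was 93.5% identical to Slfn10-ps. Slfn3 and Slfn4 were 95.3% identical, whereas Slfn2 was 75.2% identical to Slfn3. Slfn5 was at most 62.6% identical to any other member.

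Within coding sequence, the longest run shared letter for letter by Slfn8 and Slfn9 was 139 bases. It lies in the last coding exon of both genes, exon 6 of 6 of Slfn8 at chr11:82816636-82816774 and exon 5 of 5 of Slfn9 at chr11:82794733-82794871, on the minus strand of NCBIM37. It is shown because a 75-base read from inside it fits both genes, and only a mate outside it could assign the pair.
Slfn8 and Slfn9: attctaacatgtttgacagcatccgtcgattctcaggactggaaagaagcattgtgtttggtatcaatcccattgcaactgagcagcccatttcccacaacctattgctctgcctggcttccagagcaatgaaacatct

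A stretch of the same exons lies at coding bases 2330 to 2404 of both genes. Among coding stretches aligned without gaps, it is where they differ most over the length of a read. It lies at chr11:82816910-82816984 for Slfn8 and at chr11:82795007-82795081 for Slfn9. The capitals mark the 19 bases at which the genes differ, and a read from here fits only 1 of this pair. The stretch was not compared with Slfn10-ps.
Slfn8: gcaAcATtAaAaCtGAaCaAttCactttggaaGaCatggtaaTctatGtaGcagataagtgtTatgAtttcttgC
Slfn9: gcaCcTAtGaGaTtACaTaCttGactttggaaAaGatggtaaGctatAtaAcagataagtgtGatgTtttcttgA

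Over whole transcripts, exact sharing was limited. Of the 75-base sequences of the coding transcripts, 6.99% of those of Slfn8 and 7.45% of those of Slfn9 were found letter for letter in another Schlafen gene, against 11.5% for Slfn10-ps. The share was 1.70% for Slfn2, 2.48% for Slfn3, 1.77% for Slfn4 and 0 for Slfn5. When 2 mismatches were allowed, as an aligner may, the shares over the longest coding transcript rose to 28.1% for Slfn8, 28.2% for Slfn9, 36.1% for Slfn10-ps and 45.8% for Slfn3, but remained 0 for Slfn5 and 6.54% for Slfn2. The matches fell into 2 groups, one of Slfn8, Slfn9 and Slfn10-ps and one around Slfn3 and Slfn4. How reads that fit several places were counted is not given in the sources used here, nor how mates were used, so the values of Slfn8, Slfn9, Slfn10-ps, Slfn3 and Slfn4 are uncertain by the reads such places could move.

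**Figure D1:**
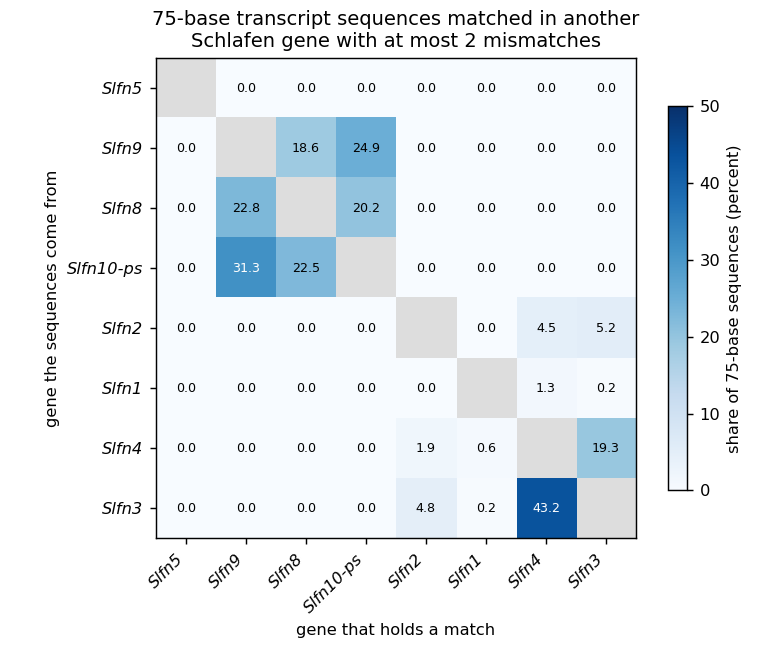
Percent of the 75-base sequences of the longest coding transcript of each gene (rows) that match another Schlafen gene (columns) with at most 2 mismatches, with grey cells on the diagonal. Slfn8 shares 22.8% with Slfn9 and 20.2% with Slfn10-ps, Slfn3 shares 43.2% with Slfn4, and Slfn5 shares none.

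Slfn2, a short Schlafen known for its part in T cell quiescence, was the most abundant member. Its normalized read counts were 360, 669 and 741 in the Robo1+/+ libraries and 502, 671 and 1037 in the Robo1-/- libraries. The groups overlapped, with the lowest value in gh03 and the highest in gh18. The log2 fold change of Robo1-/- over Robo1+/+ was 0.32 (SE 0.39, n = 3 per genotype) on the log2(value + 1) scale. As each library was left out it ran from 0.00 without gh03, and 0.04 without gh18, to 0.52 without gh15 and 0.57 without gh06. After a correction for GC content it was 0.27.

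The intermediate members were barely read. Slfn3 had normalized read counts of 3.82, 2.35 and 3.75 in the Robo1+/+ libraries and 3.45, 0.92 and 1.46 in the Robo1-/- libraries, which stand for between 1 and 4 reads in a library. Slfn4, known from macrophages and other myeloid cells, had 1.27, 1.57 and 1.88 in the Robo1+/+ libraries and 0, 1.83 and 0 in the Robo1-/- libraries, or at most 2 reads. Neither passed the filter on low reads, and no difference between genotypes was detectable at this depth. A count of 0 in gh18 allows a value of up to 4.38, for counting error only.

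Slfn5, a long Schlafen that is induced by interferon, was read at a low level in every library. Its normalized read counts were 34.4, 48.6 and 48.8 in the Robo1+/+ libraries and 41.4, 71.5 and 68.6 in the Robo1-/- libraries, from 27 to 78 reads. Robo1-/- gh12 and gh18 lay above all Robo1+/+ libraries, but gh06 lay among them. The log2 fold change was 0.43 (SE 0.37, n = 3 per genotype), and 0.32 without gh18. It ran from 0.27 without gh03 to 0.68 without gh06, and was 0.25 after the correction for GC content. The library kit did not mark strand, and an antisense transcript, Slfn5os, overlaps Slfn5 in the RefSeq annotation, so that reads of the pair cannot be told apart.

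Slfn9, a long Schlafen, varied more within a genotype than between genotypes. Its normalized read counts were 402, 144 and 184 in the Robo1+/+ libraries and 159, 246 and 298 in the Robo1-/- libraries. The highest and the lowest values were both Robo1+/+, in gh03 and gh09. The log2 fold change of 0.04 (SE 0.45, n = 3 per genotype) took either sign when a library was left out, from -0.26 without gh09 to 0.47 without gh03, and was -0.16 without gh18. It was also negative by DESeq2 (-0.055), by edgeR (-0.074) and after a correction for GC content (-0.23).

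Slfn8, the long Schlafen next to Slfn9 in the cluster, was the member whose genotypes did not overlap. Its normalized read counts were 44.5, 62.7 and 26.3 in the Robo1+/+ libraries and 110, 121 and 133 in the Robo1-/- libraries, from 28 to 132 reads. Each Robo1-/- library lay above each Robo1+/+ library, and the spread was wider among the Robo1+/+ libraries. Over 3 libraries each, the Robo1+/+ mean of 44.5 ± 18.2 (SD) stood against a Robo1-/- mean of 121 ± 11.2 (SD), a ratio of 2.73. The log2 fold change was 1.51 (SE 0.39), and 1.44 without gh18. It was 1.26 (SE 0.37) after the correction for GC content, and lay between 1.18 and 1.79 when each library was left out in turn. The adjusted p by limma with Benjamini-Hochberg adjustment over all genes tested was 0.858.

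Of the 4 members that passed the filter, 1, Slfn8, lay past the limits of an unadjusted p of 0.05 and a log2 fold change of 1 in size, and it was higher in Robo1-/-. Over all 13692 genes tested by limma, 115 lay past these limits (0.84%), of which 40 were higher (0.292%) and 75 lower (0.548%). After the correction for GC content 59 genes did (0.471%), of which 35 were higher and 24 lower. Groups that did not overlap, with the Robo1-/- libraries above, were found for 4.83% of all genes tested. Slfn8 lay past the limits by DESeq2 and by edgeR as well, where 0.335% and 0.292% of all genes tested did so and were higher. These shares stand beside the count of members, and nothing is read from the comparison, since the members were chosen with this contrast in view. No gene passed an adjusted p of 0.05 by limma or edgeR, against 1 by DESeq2, and 231 had an unadjusted p under 0.05 by limma, 221 by edgeR and 335 by DESeq2.

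**Figure D2:**
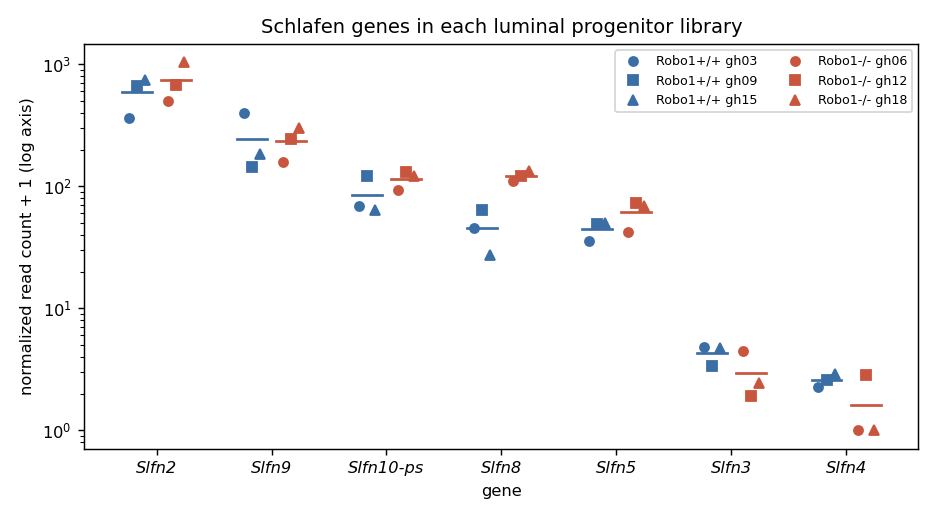
Normalized read count plus 1 (log axis) of each Schlafen gene with reads and of Slfn10-ps, in Robo1+/+ (blue) and Robo1-/- (red) libraries, where each symbol is 1 library and each short line is the mean of a genotype. The 3 Robo1-/- libraries of Slfn8 sit between 110 and 133, above the 3 Robo1+/+ libraries between 26.3 and 62.7, while the genotypes of the other genes overlap.

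Slfn10-ps, the third of the related genes, had normalized read counts of 67.4, 120 and 62.9 in the Robo1+/+ libraries and 92.1, 130 and 121 in the Robo1-/- libraries. The groups overlapped at gh09 and gh06, and the log2 fold change was 0.50 (SE 0.36, n = 3 per genotype), and 0.45 without gh18. After the correction for GC content it was 0.27. Since Slfn8, Slfn9 and Slfn10-ps could exchange reads, they were also added together, an alternative chosen after seeing the data. The sum was 514, 327 and 273 in the Robo1+/+ libraries and 361, 497 and 552 in the Robo1-/- libraries, so the genotypes overlapped in the sum. The ratio of its means was 1.27, or 0.34 on the log2 scale. That log2 ratio was 0.07 after the correction for GC content and 0.21 without gh18, and ran from 0.16 without gh15 to 0.65 without gh03 as libraries were left out.

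Within that sum, Slfn8 took 8.66%, 19.2% and 9.62% in the Robo1+/+ libraries and 30.6%, 24.4% and 24.1% in the Robo1-/- libraries. Its share was higher in each Robo1-/- library than in any Robo1+/+ library. The ratio of Slfn8 to Slfn9 was 0.111, 0.435 and 0.143 in Robo1+/+ and 0.696, 0.493 and 0.446 in Robo1-/-, with gh09 and gh18 close to each other. The ratio of Slfn8 to Slfn10-ps was 0.660, 0.523 and 0.418 in Robo1+/+ and 1.20, 0.930 and 1.10 in Robo1-/-. Neither ratio overlapped between the genotypes. The share and both ratios have Slfn8 as numerator, and its genotype difference was known beforehand, so they are not separate evidence of it. The GC content was 44.0% for Slfn8, 42.9% for Slfn9 and 44.5% for Slfn10-ps. The part that reads assigned to the wrong one of the 3 genes play in these values was not tested.

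**Figure D3:**
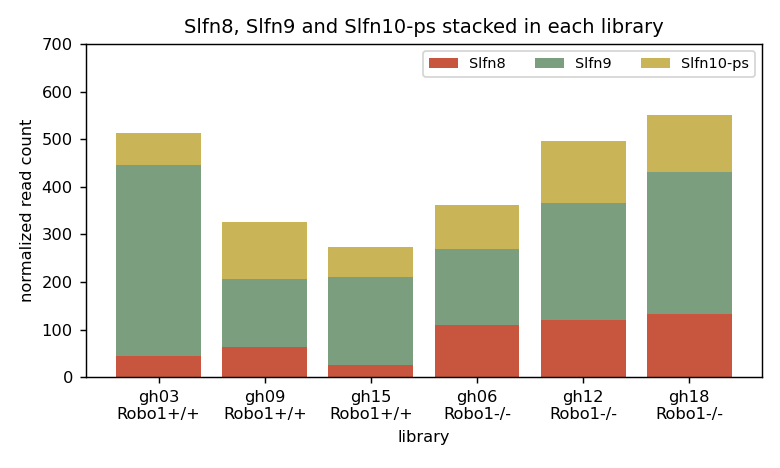
Normalized read counts of Slfn8, Slfn9 and Slfn10-ps stacked in each library, Robo1+/+ on the left and Robo1-/- on the right, with the axis from 0. The whole bars of the genotypes overlap, at 273 to 514 against 361 to 552, while the lowest segment, Slfn8, is taller in each of the 3 Robo1-/- libraries.

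The members were then compared with each other per kilobase of exon, since they differ in length. Slfn2 had a mean of 399 normalized reads per kilobase over the 6 libraries (range 216 to 623). Slfn9 followed at 50.5 (range 30.5 to 85.1), Slfn8 at 20.3 (range 6.42 to 32.5) and Slfn5 at 11.8 (range 7.76 to 16.1). Slfn3 stood at 1.45 and Slfn4 at 0.272. Among all gene clusters ordered by mean normalized read count, without regard to length, Slfn2 stood at the 74.2 percentile, Slfn9 at 56.0, Slfn8 at 42.8 and Slfn5 at 38.4.

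Neighbours in this order were compared within each library by a two-sided exact sign-flip permutation test of the log2 ratio, adjusted over 5 pairs. Slfn2 lay above Slfn9 in 6 of 6 libraries by 3.00 ± 0.85 (SD) on the log2 scale (exact p = 0.031, the smallest that 6 libraries allow, adjusted p = 0.039). Slfn9 lay above Slfn8 in 6 of 6 libraries by 1.42 ± 1.06, with the same exact p. The genotypes pooled there were unlike, with means of 51.5 for Slfn9 and 10.9 for Slfn8 in Robo1+/+ but 49.5 and 29.7 in Robo1-/-. Slfn8 and Slfn5 did not differ beyond their spread, at 0.60 ± 0.77 (exact p = 0.125, adjusted p = 0.125), with Slfn8 higher in 5 of 6 libraries. The pair of Slfn8 and Slfn5 pooled unlike genotypes too. The means were 10.9 for Slfn8 and 9.92 for Slfn5 in Robo1+/+ but 29.7 and 13.7 in Robo1-/-, where Slfn8 was higher in all 3 libraries. Slfn5 lay above Slfn3 in 6 of 6 libraries by 2.63 ± 0.93, again with the smallest p. Slfn3 and Slfn4 gave the same p, but that test rests on 0 to 4 reads and a pseudocount of 1 divided by unequal lengths, and no order was read from it.

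**Figure D4:**
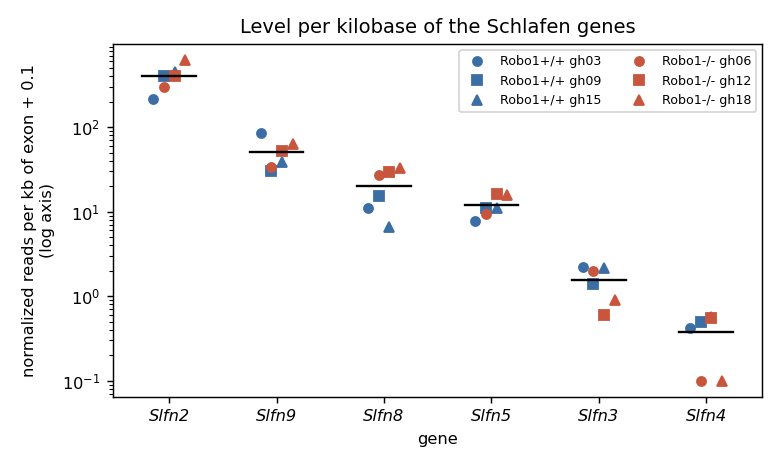
Normalized reads per kilobase of exon plus 0.1 (log axis) of the 6 Schlafen genes with a row, where each symbol is 1 library of Robo1+/+ (blue) or Robo1-/- (red) and black lines are means over 6 libraries. Slfn2, at 216 to 623, lies above the range of all other members, and the ranges of Slfn8 and Slfn5 overlap.

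Added over the 6 members, the family had a summed normalized read count of 846, 929 and 1006 in Robo1+/+ libraries and 816, 1112 and 1538 in Robo1-/- libraries. The groups overlapped, and the ratio of means of 1.25, or 0.32 on the log2 scale, fell to 0.06 without gh18 and rose to 0.52 without gh06. Slfn2 took between 42.6% and 73.7% of the sum. The share of Slfn8 was 5.26%, 6.75% and 2.61% in Robo1+/+ and 13.5%, 10.9% and 8.63% in Robo1-/-, which did not overlap.

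Each member with a mean of at least 20 in both genotypes was then matched to the genes whose log2 values followed it most closely over the 6 libraries, among 12761 genes compared. Pearson's r describes these 6 libraries only, which share their depth and base composition with both genes of a pair. Slfn2 was most like Slc35b3 (r = 0.996), Fbxo4 (r = 0.996) and Cog3 (r = 0.993). Slfn5 was most like Nmi (r = 0.999), Asah1 (r = 0.995) and Map3k8 (r = 0.994). Slfn8 was most like Nek4 (r = 0.985), AK018450 (r = 0.980) and 1110002N22Rik (r = 0.977), and their log2 fold changes of 0.31, 0.41 and 0.42 were smaller than its own. Slfn9 was most like Nudt5 (r = 0.998), Ptcd2 (r = 0.978) and Cyb5b (r = 0.978). No member was among the 3 genes most like another, the closest pair being Slfn2 and Slfn5 (r = 0.834). Slfn8 and Slfn9 had r of 0.04.

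The promoters of the members were searched for the interferon-stimulated response element, taken as GAAANNGAAA on either strand, since Schlafen genes are known as interferon-induced. The RefSeq promoters of the GRCm38.p6 build span 250 bases before to 50 bases after each start, and held all 7 members. The element was found in 3 of the 7 members, Slfn5, Slfn8 and Slfn9, against 3.99% of 27025 genes and 22 of the 41 genes of a list of interferon-stimulated genes that the table held. The match is shown in capitals in a window of 70 bases of each gene, written along the strand of the gene.
Slfn5, chr11:82951917-82951986, plus strand: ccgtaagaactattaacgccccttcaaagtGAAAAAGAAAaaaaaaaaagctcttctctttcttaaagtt
Slfn8, chr11:83020819-83020888, minus strand: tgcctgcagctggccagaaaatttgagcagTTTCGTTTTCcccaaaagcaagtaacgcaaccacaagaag
Slfn9, chr11:82991836-82991905, minus strand: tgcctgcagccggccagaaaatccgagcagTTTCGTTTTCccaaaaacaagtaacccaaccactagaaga

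Slfn8 and Slfn9 carried the same 10 letters at nearly the same place, with the first base at -48 and -45 from the start. The Slfn8 match also fell in the window of a second RefSeq start, at -136. In Slfn5 the first base lay at -155. The gamma-activated site, taken as TTCNNNGAA, was found in none of the 7 members, against 9.55% of 27025 genes. A match describes these letters in this window, and no measurement of binding was made.

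Interferon receptors and signalling genes were taken as the other genes of the pathway. All 16 of the list were tested and none lay past the limits, with a median log2 fold change of 0.00, as over all genes tested. Jak1, the kinase shared by the interferon receptors, averaged 5076 ± 641 (SD, n = 3) in Robo1-/- against 4440 ± 631 in Robo1+/+. Jak2, the kinase of the interferon gamma receptor, Irf1, a transcription factor induced by interferon gamma, and Irf9, a transcription factor of the type I interferon response, had log2 fold changes of 0.17, -0.03 and 0.25. These are the 4 genes of the list with the highest means, and the genotypes overlapped for each.

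Interferon-stimulated genes were taken as targets of the pathway. Of the 56 genes of the list, 53 were tested, 3 lay past the limits and were higher in Robo1-/- (5.66% of those tested, against 0.292% of all genes), and none was lower. The median log2 fold change was 0.34, against 0.00 over all genes tested, and 39 of the 53 were above 0. It was 0.42 without gh18 and 0.28 after the correction for GC content, with 2 higher genes in each, where 0.57% and 0.279% of all genes tested were higher. The list was chosen with earlier results of these data known, and the count moved between 1 and 9 as libraries were left out, with 1 left without gh03 or gh09, 8 without gh06 and 9 without gh15. The median moved too, from 0.09 without gh03 to 0.53 without gh15 and 0.56 without gh06.

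Ifi44, an interferon-induced antiviral gene, had normalized read counts of 90.3, 126 and 151 in the Robo1+/+ libraries and 209, 304 and 484 in the Robo1-/- libraries. Its log2 fold change was 1.38 (SE 0.39). Rtp4, a receptor transporter protein that restrains the interferon response, had 116, 233 and 341 in Robo1+/+ and 376, 573 and 512 in Robo1-/-, with a log2 fold change of 1.19 (SE 0.43). Samd9l, an antiviral and growth-restraining gene, had 214, 320 and 503 in Robo1+/+ and 571, 611 and 1148 in Robo1-/-, with a log2 fold change of 1.18 (SE 0.41). After the correction for GC content the log2 fold changes were 1.02 for Ifi44, 1.05 for Rtp4 and 0.81 for Samd9l, which was then no longer past the limits. As with Slfn8, the genotypes did not overlap for any of these 3 genes, which were named because they lay past the limits. Their lowest values were in gh03, whereas that of Slfn8 was in gh15. Of the 53 interferon-stimulated genes tested, 4 did not overlap and were higher in Robo1-/-, and 1 did not overlap and was lower. Over all genes tested, 4.83% did not overlap and were higher, and 4.58% did not overlap and were lower. The lower gene of the list was Isg20, an exonuclease of RNA named here after its values were seen. It had a log2 fold change of -1.67 (SE 0.89), and of -0.95 after the correction for GC content, with 58.5% GC.

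The genes beside the Schlafen cluster on chromosome 11 were taken as those within 10 gene clusters of it, a choice made after values were seen. These were 17 rows of 16 genes, since Rasl10b has a pair of rows with the same values. Of the rows, 9 were tested and none lay past the limits. Their median log2 fold change was 0.13, but 0.0054 after the correction for GC content and -0.062 without gh18. Ap2b1, Lig3 and Rffl, the neighbours with the highest means, had log2 fold changes of 0.14, 0.13 and 0.08. Those of the tested neighbours ranged from -1.64 to 0.41.

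**Figure D5:**
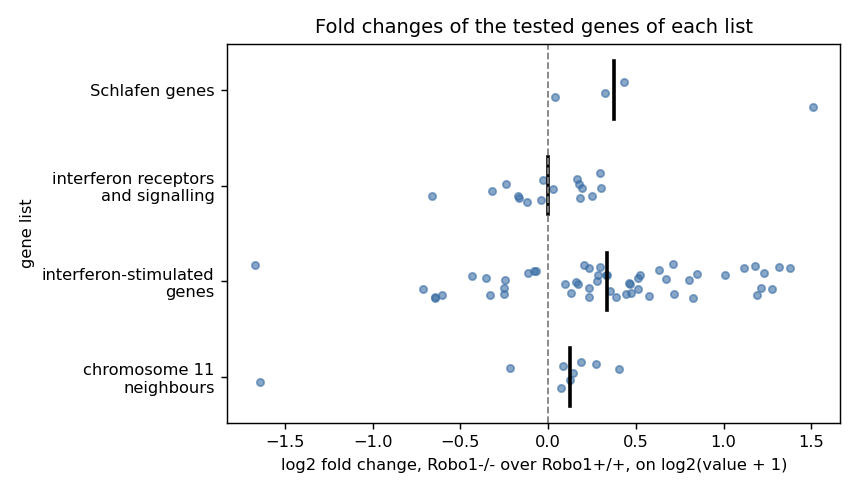
Log2 fold change of Robo1-/- over Robo1+/+ on the log2(value + 1) scale for the tested Schlafen genes (4), interferon receptors and signalling genes (16), interferon-stimulated genes (53) and neighbours on chromosome 11 (9), with each point 1 gene, the black line the median of a list and the dashed line the median of all genes tested. The point of Slfn8 lies at 1.51, and the interferon-stimulated genes have a median of 0.34.

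Schlafen genes are best known from immune cells, so markers of leukocytes were read in the same libraries. Of 23 markers, 15 had a row and 6 had reads in all 6 libraries. The summed value of the list was 230 to 326 in Robo1+/+ and 170 to 283 in Robo1-/-. Most of it came from Cd68, with means of 112 in Robo1+/+ and 92.6 in Robo1-/-, and S100a8, with 113 and 78.6, and both overlapped between genotypes. The overlap of S100a8 rested on gh18, with 184, 43.1 and 111 in Robo1+/+ and 31.1, 38.5 and 166 in Robo1-/-. Without gh18, 1 of the 4 leukocyte markers tested lay past the limits and was lower, as was 0.855% of all genes tested. The pan-leukocyte genes Ptprc, Laptm5 and Coro1a together reached 0.78 to 6.56 in Robo1+/+ and 0.92 to 2.92 in Robo1-/-, with Ptprc at 0 in 4 of the 6 libraries. In bulk samples such as these, a change in the number of cells of a type and a change of RNA per cell cannot be told apart.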

How the data were processed

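Poly(A)+ RNA of sorted luminal progenitors was sequenced on an Illumina HiSeq (TruSeq RNA kit v.1, which does not mark strand). The authors trimmed paired reads to 75 bases at each end, removed those mapping to repeats with Bowtie, aligned the rest to mm9 (NCBI37) with TopHat and deposited read counts divided by DESeq size factors. The deposited values are thus a normalized signal per gene cluster, given here as normalized read counts. The counting tool, and its use of multiply mapped reads and of strand are not given in the sources used here. In each library nearly all values were whole multiples of 1 read (at least 99.984%), so reads were recovered by division.

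The main test was limma 3.58.1 with an intensity trend on log2(value + 1), for the 13692 clusters that edgeR's filter on recovered reads kept. P-values were adjusted by the Benjamini-Hochberg method. DESeq2 1.42.0 and edgeR 4.0.16 on recovered reads, TMM scaling, no filter, pseudocounts of 0.5 and 5, a lowess correction for transcript GC content (12531 genes) and leaving out each library were alternatives. Of these, only the limma fit was tested on simulated data, with calls by adjusted p and not by the limits used here.

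Of 18537 clusters, 16494 (89.0%) were matched by symbol to GENCODE M1 on NCBIM37, the build of the files. Levels per kilobase used the union of exons. Positions of promoters are of GRCm38.p6, a different build.

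The members and lists were chosen with earlier results of these data known. Named genes were all members and other Schlafen symbols, genes of each list past the limits or else up to 4 with the highest means, the 3 genes most like each member with a mean of at least 20, and Robo1.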

Additional observations from a re-analysis of the deposited data

How the results depend on the processing

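Slfn8 was the single Schlafen gene past the limits under every alternative run, with a log2 fold change of 1.18 to 1.79. The log2 fold change of Slfn9 took the opposite sign by DESeq2 (-0.055), by edgeR (-0.074), after the GC correction (-0.23) and without gh09, gh15, gh12 or gh18 (range over libraries left out -0.26 to 0.47). The cause was not tested. The count over all genes was 178 by DESeq2, 304 with no filter on low reads and 59 after the GC correction, and ranged from 84 to 631 as each library was left out, against 115 with all libraries. It was 631 without gh06 and 195 without gh18. Lower genes made up 65.2% of the count and 40.7% after the GC correction. The count of interferon-stimulated genes was 5 by DESeq2 and ranged from 1 to 9 as libraries were left out, and that of chromosome 11 neighbours from 0 to 1. Their median log2 fold changes ranged from 0.09 to 0.56 and from -0.062 (without gh18) to 0.23, and the log2 ratio of the family's sum from 0.06 to 0.52. Slfn3 and Slfn4 are limited by their depth of at most 4 reads, and the reads shared by Slfn8, Slfn9 and Slfn10-ps by the unknown counting rule. No paired analysis was possible because the replicate labels of the genotypes share no number and no source used here states which libraries held littermates.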

Other observations

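Slfnl1, a Schlafen-like gene on chromosome 4, had 2 reads in Robo1+/+ gh09 and none in the other 5 libraries. Slfn14, the remaining long Schlafen of the cluster, had no row under its symbol and was not analysed here. In coding sequence, Slfn1 was 70.2% identical to Slfn2, and none of the 75-base sequences of Slfn1 was found letter for letter in another Schlafen gene.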
